A study of Coptotermes formosanus x Coptotermes gestroi and Coptotermes formosanus and Coptotermes gestroi with 67 samples.

Results

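A set of 95 genes, 0.596% of the 15950 genes in the table, had their highest level after the molt in both the head and the body of termite workers. The set was defined on these same counts. In each tissue, the geometric mean of post-molt CPM + 1 over the 4 crosses had to be at least 2 times the pre-molt and the inter-molt mean, and post-molt CPM + 1 had to be at least 1.3 times both in every cross. CPM scales the counts of each profile by its total. Because post-molt against the other stages chose the genes, those differences are given as a description, with no test. By the mirrored rule, 354 genes peaked before the molt and 221 between molts in both tissues.

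An insect molts by secreting a new cuticle under the old one, shedding the old one, and then expanding, hardening and thickening the new one. The steroid hormone 20-hydroxyecdysone times the sequence, and gene activity before the shedding differs from activity after it. Termite workers go on molting throughout their lives, and the control of termite colonies with chitin synthesis inhibitors acts on this step.

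The libraries came from worker termites of the subterranean species Coptotermes formosanus and its relative Coptotermes gestroi, and from 2 hybrids of this pair that carry the names Hybrid F and Hybrid G. These 4 mating combinations are called crosses here. Workers were sampled between molts (inter-molt), before a molt (pre-molt) and after a molt (post-molt), and head and body (thorax and abdomen, gut removed) were separate libraries. No treatment is named in the labels, and the sources used here do not give the maternal species of each hybrid, the age of the workers, the colonies or the number of workers pooled. Cross, tissue and stage divide the 67 labelled samples into 24 groups. For the body, C. gestroi had 1 deposited column between molts and 2 before the molt, and C. formosanus had 1 between molts. All other groups had 3 columns. The smaller groups had the lowest totals, at 9861833, 19497806 and 10080438 counts, and they enter every body test of pre-molt against inter-molt. Where a group had more than 1 column, these were the same in every gene. Each group was thus counted as 1 profile, and totals ran from 9861833 to 38338701 counts. A p-value below therefore reads whether a difference was repeated from cross to cross or stage to stage, and not the spread between workers or colonies. In bulk tissue, a change in the number of cells of a type and a change in RNA per cell cannot be told apart.

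The genes carry ID numbers, 81 of the 95 with a Cfor number and 14 with a BGI_novel number. The files do not pair these IDs with gene names, so no function, cell type marker or pathway can be given, and head and body could not be checked against marker genes. One pair of profiles stood apart. In inter-molt Hybrid G, several of the most abundant of the 95 genes were 10 or more times above every other cross. The pre-molt against inter-molt and the head against body calls are also given without it. Ratios of post-molt to inter-molt are given with it only.

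Together the 95 genes went from a small share of all counts between molts to between 9.49% and 14.7% after the molt. In the head their share of all counts had a median of 0.516% between molts (0.442% to 3.96% over the 4 crosses), 1.76% before the molt (1.01% to 2.60%) and 13.6% after it (13.1% to 14.7%). In the body the medians were 0.502% (0.284% to 0.976%), 1.57% (1.05% to 2.43%) and 11.7% (9.49% to 12.2%). The stages did not overlap in the body, while in the head the inter-molt value of Hybrid G, 3.96%, lay above all 4 pre-molt values. The genes of the mirrored pre-molt set fell over the molt, as their own rule required. They went from between 22.1% and 27.3% of head counts before it to between 3.71% and 5.47% after it.

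**Figure D1:**
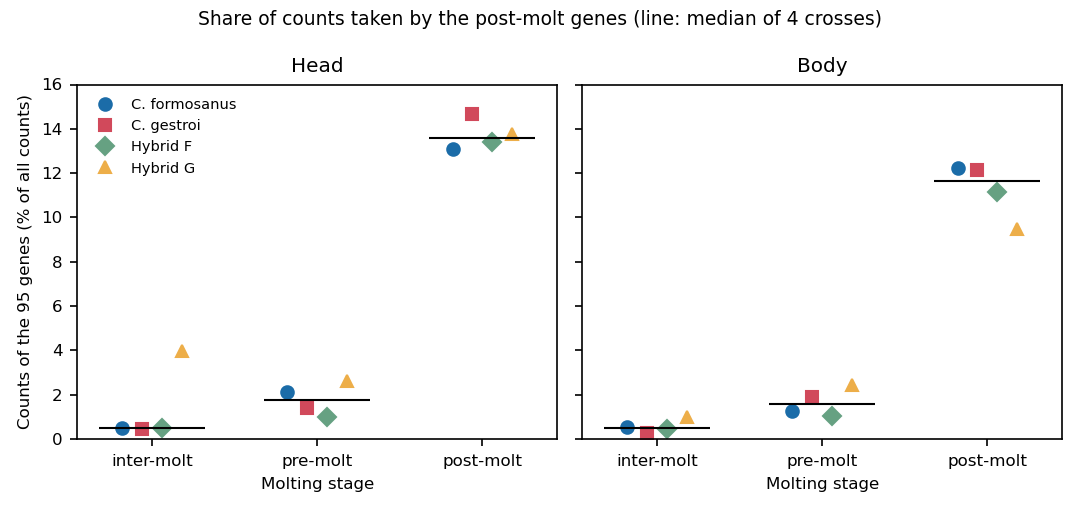
Share of all counts (%) taken by the 95 genes in each profile, by molting stage, in the head (left) and the body (right); each point is 1 cross and each line the median of the 4 crosses. All post-molt points lie at 9.49% or more, all others at 3.96% or less, and the inter-molt Hybrid G head is the high point at 3.96%.

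A few genes carried most of that share. BGI_novel_G002829, BGI_novel_G001907, Cfor_06437 and Cfor_05875 together took 5.21% to 10.5% of the counts of a post-molt profile, and the other 91 genes 3.99% to 4.35%. Averaged over the 8 post-molt profiles, BGI_novel_G002829 alone took 3.30% of all counts, BGI_novel_G001907 took 2.07%, Cfor_06437 took 2.06% and Cfor_05875 took 0.911%. Per kilobase of the gene length in the table, the post-molt means of these 4 genes were 25033, 17724, 11294 and 8471 CPM, in the same order. The median post-molt CPM over the 95 genes was 170.2 in the head and 188.7 in the body, and 13 genes in each tissue reached 1000 CPM.

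BGI_novel_G002829 also had the largest smallest-of-4 rise, meaning the smallest of its post-molt ratios to pre-molt and inter-molt in head and body. Its head held 91.8, 6.74, 22.2 and 2262 CPM between molts (C. formosanus, then C. gestroi, then Hybrid F and Hybrid G), 2323, 994.7, 191.9 and 2142 CPM before the molt, and 28316, 40187, 30466 and 30066 CPM after it. The body held 50.4, 27.7, 37.8 and 680.3 CPM between molts, 1145, 2814, 165.1 and 1637 CPM before the molt, and 37415, 41854, 32591 and 23054 CPM after it. After the molt the 4 crosses were close together, while before it Hybrid F was lowest and between molts Hybrid G was highest in both tissues. As ratios of geometric means, post-molt was 32.3 times pre-molt in the head and 34.0 times in the body.

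Cfor_06437 went in the head from 2.51, 5.73, 16.5 and 7511 CPM between molts (crosses in the same order) to 32786, 27623, 31163 and 26819 CPM after the molt. In the body it went from 27.5, 19.6, 33.0 and 1837 CPM to 12988, 9924, 13275 and 10226 CPM. Between these stages, at pre-molt, it stood at 4221, 2541, 1626 and 5985 CPM in the head. Head levels after the molt were above body levels in every cross for this gene.

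BGI_novel_G001907 had the highest ratio of post-molt to inter-molt in the head, 722.8. Its inter-molt heads held 1.70, 2.63, 7.73 and 18829 CPM, and its post-molt heads 20564, 27807, 24069 and 32009.8 CPM. Inter-molt Hybrid G was thus close to post-molt levels and the other 3 crosses were under 10 CPM. Counts of this gene were not whole numbers in 23 of 24 profiles, as happens when estimated counts divide reads between similar sequences, so its level is uncertain. Counts of Cfor_05875 were not whole in 24 of 24 profiles, and those of BGI_novel_G002829, Cfor_06437 and Cfor_05879 were whole in every profile.

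Cfor_05879 came second by smallest-of-4 rise, at 17.7. Post-molt heads held 7006, 8018, 7329 and 7593 CPM and post-molt bodies 4143, 5047, 4770 and 4024 CPM, against 1.84, 7.76, 11.1 and 946.3 CPM in inter-molt heads. The rule required post-molt to be above the other stages in every cross of both tissues, and for this gene the smallest single ratio was 8.02.

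**Figure D2:**
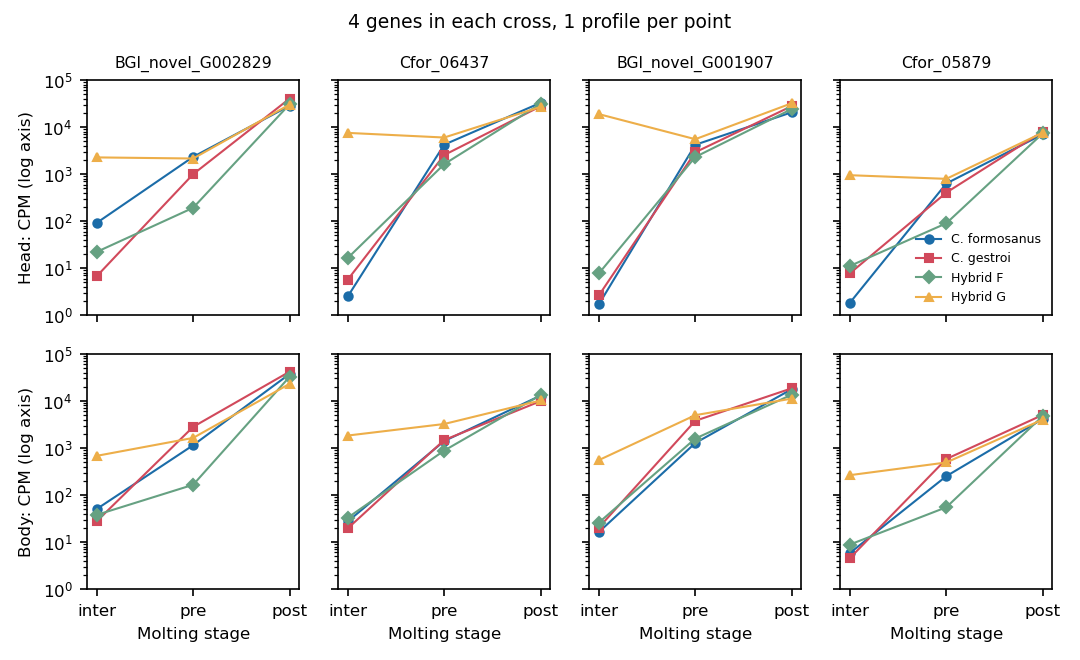
CPM (log axis) of BGI_novel_G002829, Cfor_06437, BGI_novel_G001907 and Cfor_05879 by molting stage in the head (top) and the body (bottom); each line is 1 cross and each point 1 profile. The crosses come together after the molt, and inter-molt Hybrid G lies far above the other crosses, at 18829 CPM for BGI_novel_G001907 in the head.

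Most of the 95 genes changed less. The ratio of post-molt to inter-molt had a median of 5.35 in the head (2.00 to 722.8) and 6.49 in the body (2.05 to 416.8). Against pre-molt the medians were 3.27 (2.02 to 32.3) and 3.31 (2.11 to 34.0). For 71 genes the smallest of the 4 ratios was against pre-molt, and for 24 it was against inter-molt. That smallest ratio lay between 2 and 2.5 in 32 genes, between 2.5 and 4 in 33, between 4 and 8 in 22, and at 8 or more in 8. Taken singly, each of the 4 conditions of the rule was met by 4.43% of all genes (over inter-molt, head), 2.76% (over pre-molt, head), 4.26% (over inter-molt, body) and 4.97% (over pre-molt, body). These percentages belong to contrasts that the rule used.

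At the edge of the rule, Cfor_02783 (smallest ratio 2.00) and Cfor_00753 (2.01) were just inside, and BGI_novel_G002593 (1.97) and Cfor_27433 (1.96) just outside. Cfor_02783 held 67.9 to 120.5 CPM in inter-molt heads and 165.9 to 193.9 CPM in post-molt heads. BGI_novel_G002593, which missed the rule by its body ratio to pre-molt, held 2.23, 8.92, 6.03 and 209.9 CPM in inter-molt heads and 2223, 3325, 2304 and 2559 CPM in post-molt heads. The excluded gene thus had a far larger ratio to inter-molt than many genes that were included. A further 34 genes reached the 2-fold condition and failed the condition on every cross. With TMM-scaled CPM in the rule 99 genes qualified, 79 of them among the 95, so 16 of the 95 rest on scaling by the column total.

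The 95 genes were longer than most. The median gene length in the table was 4032 bases (quartiles 2149 and 6590.5, range 665 to 18925), against 2439 bases over all genes, 2741.5 in the mirrored pre-molt set and 2645 in the mirrored inter-molt set. Over the 13534 genes counted well enough to be tested the median was 2904.5 bases, with 63 of the 95 above it. BGI_novel numbers made up 14.7% of the 95 genes and 24.8% of all genes. Every count was whole in 54.7% of the 95 genes and in 59.0% of all genes. No test was made of these properties.

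**Figure D3:**
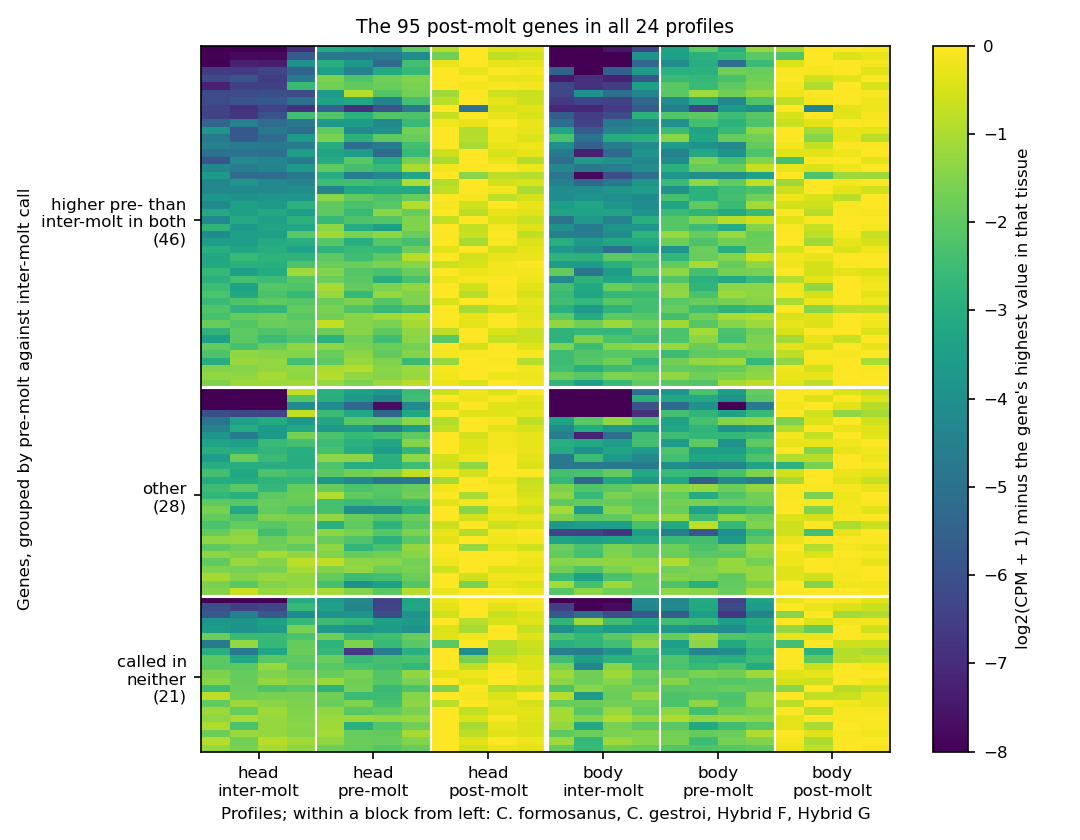
All 95 genes (rows) in all 24 profiles (columns); colour is log2(CPM + 1) minus the gene's highest value in that tissue, with values under -8 drawn as -8. Rows are grouped by whether a gene was called for pre-molt against inter-molt (46 higher in both tissues, 28 other, 21 in neither). By the rule, the post-molt column of each cross is above its other stages. A cross with a low peak can still lie well under 0 after the molt, as C. gestroi does for BGI_novel_G003744.

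The rule did not set pre-molt against inter-molt, so this step could be tested, with the crosses as blocks. The values of both stages did enter the rule through their ratios to post-molt, so the test is not fully independent of it. In both tissues far more of the 95 genes were higher before the molt than between molts, where over all genes the calls in the 2 directions were near balance. In the head 53 of 95 were higher (24.4% of all tested genes were) and 4 were lower (25.8% of all tested genes were) at an edgeR quasi-likelihood adjusted p under 0.05. In the body 64 were higher (14.8% of all tested genes) and 0 were lower (11.7% of all tested genes; by DESeq2 also 0 lower, and at an unadjusted p under 0.05 74 of the 95 passed in either direction). The median log2 fold change over the 95 genes was 1.04 in the head and 1.27 in the body, against -0.02 and -0.01 over all genes tested. All 95 passed the filter on low counts in both tissues, BGI_novel_G001606 and Cfor_06334 in the head only through their post-molt counts. Without these 2 genes, 52 of 93 were higher and 4 lower in the head, and 45 were higher in both tissues. Leaving out the inter-molt Hybrid G profile gave 62 calls in the head, 59 higher and 3 lower, and 59 in the body.

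For 46 genes the increase was called in both tissues (11.9% of the genes tested in both). Cfor_09879 held 1.27, 3.42, 2.21 and 13.9 CPM in inter-molt heads, 216.0, 179.0, 128.4 and 461.5 CPM in pre-molt heads, and 1016, 1835, 1397 and 1402 CPM in post-molt heads, crosses in the order given above. Its 3 stages did not overlap, with log2 fold changes of pre-molt over inter-molt of 6.33 ± 0.59 (SE) in the head (edgeR adjusted p = 8.4e-05) and 5.97 ± 0.45 in the body (edgeR adjusted p = 0.00021). Cfor_00223 was close to absent from inter-molt heads, at 0, 0, 0.0648 and 0 CPM, and stood at 4.86, 37.4, 14.5 and 21.0 CPM in pre-molt heads and 31.1, 69.5, 46.1 and 44.0 CPM in post-molt heads. Its inter-molt heads summed to 1.88 estimated counts, and pooled pre-molt CPM was 1005 times pooled inter-molt CPM. The 95% exact interval of 261.2 to 7803 is for counting error only, and not for the division of reads between similar sequences. Counts of this gene were not whole in 20 profiles, so its level, this ratio and the interval are uncertain. The fitted log2 fold change was 9.89 ± 0.63 (edgeR adjusted p = 1.5e-05), a value that depends on how the model treats counts of 0.

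In the body the largest fitted increases were those of Cfor_06334 and Cfor_09256, the first fitted over inter-molt counts of 0. Cfor_06334 had no count in any inter-molt profile of either tissue, and 0.678, 0.359, 0.319 and 1.60 CPM in pre-molt bodies. Against a floor of 3 counts over the 4 inter-molt bodies, pooled pre-molt CPM was at least 20.1-fold higher (edgeR adjusted p = 0.018). The call was lost without the pre-molt body of C. gestroi (edgeR adjusted p = 0.0508) or Hybrid G (0.0614), and post-molt bodies stood at 2.82, 7.58, 26.0 and 24.5 CPM. Cfor_09256 held 5.26, 2.74, 3.94 and 38.3 CPM in inter-molt bodies and 878.5, 675.4, 439.4 and 736.4 CPM in pre-molt bodies, or 6.85 ± 0.91 on the log2 scale (edgeR adjusted p = 0.0015). The head of the same gene gave 1.56 ± 1.32 (edgeR adjusted p = 0.36), with inter-molt heads at 50.6, 42.7, 39.0 and 2050.2 CPM. The single high value is again Hybrid G, and in the body Cfor_08803 was fitted at 6.01 ± 1.54 with the inter-molt Hybrid G profile (edgeR adjusted p = 0.024) and at 8.53 ± 0.54 without it, then above Cfor_09256 (7.92 ± 0.43).

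The 4 genes lower before the molt in the head had small changes. Cfor_07857 held 31.96, 31.92, 38.0 and 39.8 CPM in inter-molt heads, 19.2, 13.2, 8.03 and 9.03 CPM in pre-molt heads and 127.2, 271.5, 220.9 and 166.0 CPM in post-molt heads. It fell by 1.13 ± 0.30 on the log2 scale before the molt (edgeR adjusted p = 0.016), and Cfor_06241 fell by 0.92 ± 0.26 (edgeR adjusted p = 0.018). In the head these genes passed through a low point before the molt. On CPM by column totals, pre-molt and inter-molt did not overlap for Cfor_07857 or Cfor_06241. Overlap on the TMM scale of the tests was not looked at. Leaving out the pre-molt head of Hybrid F ended both calls (edgeR adjusted p = 0.0503 and 0.056), as did that of Hybrid G for Cfor_07857 (0.055) and that of C. gestroi for Cfor_06241 (0.0706). Cfor_07268 was the 1 gene called in opposite directions (0.534% of the genes tested in both), at -0.41 ± 0.12 in the head (edgeR adjusted p = 0.022) and 1.45 ± 0.23 in the body (edgeR adjusted p = 0.0034).

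Of the remaining genes, 10 were called in the head and not the body (30.7% of the genes tested in both), 17 in the body and not the head (6.05%), and 21 in neither (43.3%). A difference between the tissues was not tested. The 21 include Cfor_05875 and Cfor_05879, which were called in both tissues without the inter-molt Hybrid G profile. Counted cross by cross with no test, on CPM by column totals, pre-molt exceeded inter-molt in all 4 crosses for 33 of the 95 in heads (13.8% of tested genes) and 51 in bodies (10.4% of tested genes). It was below in all 4 crosses for 13 in heads (51.1% of tested genes) and 1 in bodies (46.9% of tested genes). On the TMM scale of the tests, the median log2 fold change over all tested genes was -0.02 in the head and -0.01 in the body. The cross-by-cross counts and shares thus depend on scaling by column totals. Of the single crosses, Hybrid F had the fewest of the 95 with pre-molt above inter-molt, 51 in heads (19.2% of tested genes) and 59 in bodies (20.5% of tested genes).

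**Figure D4:**
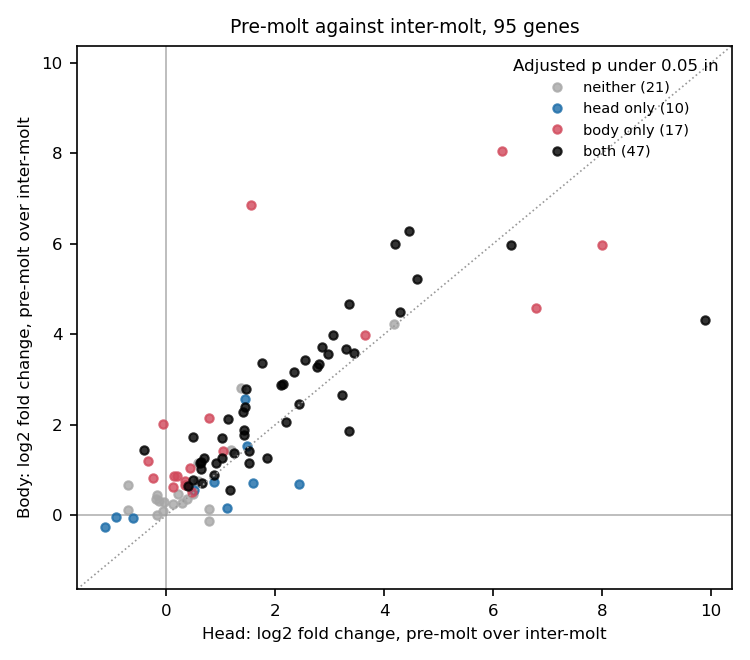
Log2 fold change of pre-molt over inter-molt in the head (x) and the body (y) for the 95 genes, 1 point per gene, coloured by the tissues with an adjusted p under 0.05; the dotted line marks equal change. Most points lie above 0 on both axes, with Cfor_00223 at 9.89 in the head farthest right.

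Inter-molt Hybrid G differed from the other 3 crosses in a subset of the 95 genes. In the head 10 of 95 were at least 4-fold above the highest other cross (0.654% of tested genes were), on CPM + 1, and in the body 12 (1.19% of tested genes). None of the other 3 crosses held a gene of the 95 past 4-fold in either tissue, by the same measure. The 10 head genes were all among the 12 of the body, namely BGI_novel_G001907, BGI_novel_G002829, Cfor_05184, Cfor_05875, Cfor_05878, Cfor_05879, Cfor_06437, Cfor_08803, Cfor_08857 and Cfor_09256. They were chosen by these values, so no test is given for the difference.

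These genes included 7 of the 10 with the most post-molt counts. BGI_novel_G001907 was 2158 times the next cross in the head and 20.6 times in the body, Cfor_06437 was 429.7 and 54.1 times, and Cfor_05879 was 78.0 and 26.9 times. In Hybrid G heads 6 of the 10 genes were higher between molts than before the molt, and in Hybrid G bodies 0 of the 10 were. Cfor_09256 in the head went from 2050.2 CPM between molts to 355.9 CPM before and 2827 CPM after the molt. Over all 95 genes, the median ratio of inter-molt Hybrid G to the highest other cross was 0.951 in the head and 0.947 in the body, above the same median over all tested genes (0.760 and 0.747) and above that of each other cross over the 95 genes (0.667 to 0.796 and 0.531 to 0.746). Genes of the mirrored pre-molt set took 6.54% of counts in the inter-molt Hybrid G body and 0.384% to 0.457% in the other inter-molt bodies, and 0.677% against 0.480% to 0.571% in the heads. What sets this profile apart was not tested.

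The pre-molt tests of these 10 genes rest on that profile. With it, 4 of 10 were called higher before the molt in the head and 8 of 10 in the body, and without it 10 of 10 in each tissue. For Cfor_06437 in the head the log2 fold change was 6.79 ± 3.0 with the profile (edgeR adjusted p = 0.093) and 9.18 ± 0.91 without it (edgeR adjusted p = 0.0003). For BGI_novel_G002829 it was 3.66 ± 1.59 (edgeR adjusted p = 0.089) and 5.47 ± 1.06 (edgeR adjusted p = 0.0059). The genes were picked because that profile was high, so the change in calls describes these genes and is no independent result.

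The height of the post-molt peak also varied by cross, given here with no test because the rule used it. Over pre-molt, the ratio was largest in Hybrid F for 60 of 95 genes in the head (35.3% of tested genes) and 48 in the body (20.1% of tested genes). It was smallest in Hybrid G for 50 in the head (13.6% of tested genes) and 44 in the body (7.5% of tested genes). Median ratios in the head were 3.29 and 3.72 in C. formosanus and C. gestroi, then 4.28 for Hybrid F, with Hybrid G at 2.77, and in the body they were 3.56, 3.24, 4.13 and 2.99. Over inter-molt, the ratio was smallest in Hybrid G for 49 genes in the head (14.9% of tested genes) and 42 in the body (16.6% of tested genes), with medians in Hybrid G of 3.55 and 5.27 against 4.91 to 6.22 and 6.35 to 7.22 in the other crosses.

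Levels of the 95 genes over all stages were compared between the species. The rule did not set the crosses against each other. It did need post-molt counts in every cross, so a gene absent from a species could not enter the set. A value of NA occurred in 2.11% of the 95 genes and in 20.9% of all genes. The shares called here lay below those over all tested genes in both tissues. That gap was not tested, and it is not independent of the rule. In the head 12 genes were higher in C. gestroi (24.5% of all tested genes) and 20 were lower (28% of all tested genes) by edgeR at an adjusted p under 0.05. In the body 9 were higher (20.5% of all tested genes) and 14 lower (23% of all tested genes). The same call was made in both tissues for 7 genes higher (16.9% of the genes tested in both) and 12 lower (19.7%) in C. gestroi, with 0 in opposite directions (0.128%). The sources used here do not name the reference that reads of both species were set against, so a difference in level and a difference in how well reads were assigned cannot be told apart.

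The largest species difference was that of BGI_novel_G003744, whose post-molt peak was low in C. gestroi. Post-molt heads held 114.5 CPM in C. formosanus and 2.55 CPM in C. gestroi, with Hybrid F at 82.2 and Hybrid G at 89.4 CPM, and post-molt bodies held 134.1, 5.63, 105.6 and 117.0 CPM. In all other profiles the gene stood at or under 9.92 CPM. Its log2 fold change of C. gestroi over C. formosanus was -5.37 ± 0.75 in the head (edgeR adjusted p = 0.00062) and -3.74 ± 0.88 in the body (edgeR adjusted p = 0.011). The body call was lost without the post-molt body of C. formosanus (edgeR adjusted p = 0.056) or of C. gestroi (0.088). Without the post-molt C. gestroi head, the head value became -8.31 (edgeR adjusted p = 0.025). Counts of this gene were not whole in 19 of 24 profiles.

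Cfor_05961 was also low in C. gestroi heads. Post-molt heads held 461.9, 26.6, 231.6 and 278.7 CPM in the cross order used above, and the log2 fold change between the species was -3.39 ± 0.51 (edgeR adjusted p = 0.00091). Both hybrids lay between the species in post-molt heads. In the body Cfor_11586 had the second largest decrease, at -2.08 ± 0.41 (edgeR adjusted p = 0.0048), from 52.0 CPM in post-molt C. formosanus to 18.2 CPM in post-molt C. gestroi. Counts were not whole in 23 of 24 profiles for Cfor_05961 and in 18 for Cfor_11586, so these levels are uncertain too.

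Among genes higher in C. gestroi, BGI_novel_G000885 held 64.1, 260.9, 138.6 and 170.3 CPM in post-molt heads and 59.7, 317.5, 205.7 and 208.3 CPM in post-molt bodies. The species differed by 2.19 ± 0.37 in the head (edgeR adjusted p = 0.0016) and 1.82 ± 0.48 in the body (edgeR adjusted p = 0.018) on the log2 scale, and after the molt both hybrids were between the species. Counts were not whole in 22 of 24 profiles for this gene. The body call was lost without the pre-molt or the post-molt body of either species (edgeR adjusted p = 0.0587 to 0.0743). Cfor_12922 was higher in C. gestroi bodies by 2.5 ± 0.35 (edgeR adjusted p = 0.00099), with post-molt bodies at 19.9, 101.5, 104.4 and 83.6 CPM. Cfor_00014, at 1.97, 7.81, 3.62 and 4.12 CPM in post-molt heads, was higher by 2.05 ± 0.33 in the head (edgeR adjusted p = 0.0011), with counts not whole in 24 of 24 profiles.

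**Figure D5:**
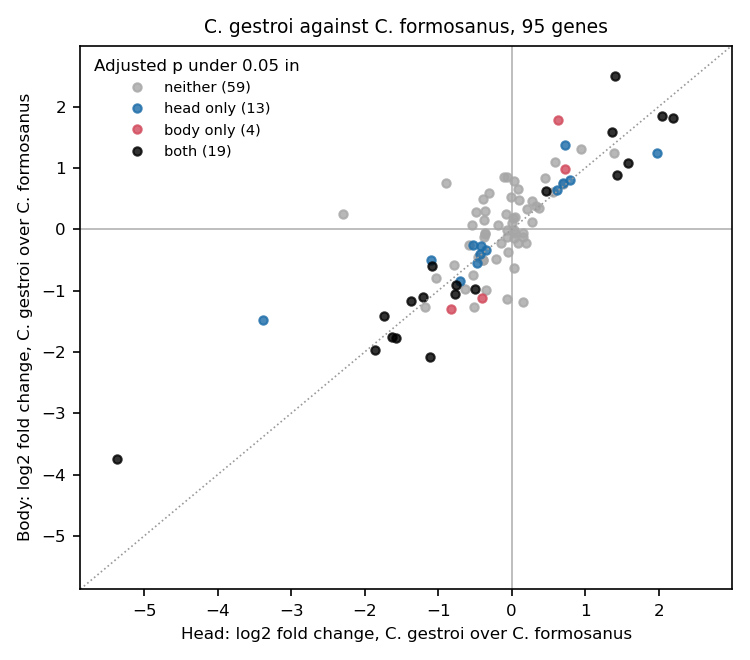
Log2 fold change of C. gestroi over C. formosanus in the head (x) and the body (y) for the 95 genes, 1 point per gene, coloured by the tissues with an adjusted p under 0.05; the dotted line marks equal change. The 7 genes called higher and the 12 called lower in both tissues lie in the upper right and lower left, with BGI_novel_G003744 at -5.37 and -3.74.

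The hybrids were compared with each other and with the parental species. Between Hybrid G and Hybrid F, edgeR called 0 of 95 genes in the head (0.148% of all tested genes) and 0 in the body (0.123% of all tested genes). An unadjusted p under 0.05 was reached by 19 genes in the head (11.7% of all tested genes) and 13 in the body (6.86%), and DESeq2 called 7 (2.12%) and 2 (1.03%). Most fitted changes still had the same direction. In heads Hybrid G was fitted higher for 85 of the 95 and lower for 10, and in bodies higher for 83 and lower for 12. The median log2 fold change was 0.416 in heads and 0.423 in bodies, against 0.009 and 0.025 over all tested genes. This shared direction was not tested, and the fits average over the stages with the inter-molt Hybrid G profile included. After the molt alone the medians did not share it. Set against the midpoint of the species on log2(CPM + 1) by column totals, the post-molt head median was -0.029 in Hybrid G and 0.103 in Hybrid F. In post-molt bodies it was 0.215 in Hybrid G and 0.287 in Hybrid F. The mean of both hybrids exceeded the mean of both species for 1 gene in the head (5.43% of all tested genes) and for 9 in the body (10.4% of all tested genes), and was lower for 0 in each (0.903% and 4.15% of all tested genes). Here 12 head genes (22.7% of all tested genes) and 23 body genes (34.1%) had an unadjusted p under 0.05, and DESeq2 called 6 (8.82%) and 15 (16.1%) higher and 0 lower. The hybrids were fitted above the species for 77 and below for 18 in heads, and above for 84 and below for 11 in bodies. Median log2 fold changes were 0.211 and 0.352, against 0.034 and 0.096 over all tested genes, again with no test of the shared direction.

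The head gene was BGI_novel_G003744, at 2.52 ± 0.45 (edgeR adjusted p = 0.015). In the body it gave 2.46 ± 0.56 (edgeR adjusted p = 0.028). Its hybrids were near C. formosanus and far above C. gestroi, as the post-molt values given above show, so neither hybrid exceeded both species after the molt. Cfor_12716 in the body gave 1.81 ± 0.47 (edgeR adjusted p = 0.042), with post-molt bodies at 212.0, 60.3, 265.6 and 318.1 CPM, and here both hybrids lay above both species. The call for BGI_novel_G003744 in the body was lost without any 1 pre-molt body or the post-molt body of C. gestroi or Hybrid F (edgeR adjusted p of at most 0.0833). That for Cfor_12716 was lost without any 1 body other than the inter-molt Hybrid F or post-molt Hybrid G body (edgeR adjusted p of at most 0.129). The 9 body calls became 1 without the pre-molt C. formosanus, the pre-molt Hybrid F or the post-molt Hybrid F body, 2 without the pre-molt Hybrid G body, 3 without the inter-molt Hybrid F or the pre-molt C. gestroi body, and 5 without the inter-molt C. gestroi or the post-molt C. formosanus body. The head call was lost without the post-molt C. gestroi or the post-molt Hybrid F head, and became 2 calls without the inter-molt C. gestroi or the post-molt Hybrid G head.

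By position alone, with no test, both hybrids lay between the species after the molt for 57 of 95 genes in the head (54.6% of tested genes) and 36 in the body (43.5% of tested genes). They lay above both species for 6 in the head (5.19% of tested genes) and 31 in the body (23.5% of tested genes), and below both for 4 (6.56% of tested genes) and 6 (7.17% of tested genes). Of the 12 genes lower in C. gestroi in both tissues, Hybrid F was nearer to C. formosanus after the molt for 11 in the head (78.8% of all genes with that call) and 11 in the body (81.8%), and Hybrid G for 8 (68.2%) and 10 (85%). Of the 7 genes higher in C. gestroi in both tissues, Hybrid F was nearer to C. formosanus for 1 in the head (52.7% of all genes with that call) and 2 in the body (45.9%), and Hybrid G for 3 (45.7%) and 1 (35.7%).

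After the molt, 30 of the 95 genes differed in level between head and body, or 31.6% against 36.5% of all tested genes. Such differences were thus no more frequent in the set than over all tested genes, and the gap was not tested. By edgeR, with each cross and stage as a block, 22 were higher in the head (18.3% of all tested genes) and 8 were higher in the body (18.2% of all tested genes). Differences of at least 2-fold were found for 7 (7.61% of all tested genes) and 4 of them (11.1%). Over the mean of the 3 stages, 35 were higher in the head (27.3% of all tested genes) and 22 in the body (24.2% of all tested genes). Without both inter-molt Hybrid G profiles, an alternative added after the data were seen, there were 32 calls after the molt and 49 over the mean of stages.

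Cfor_08857 was the strongest head gene, with counts not whole in 12 profiles, so its level is uncertain. Its post-molt heads held 552.3, 490.4, 522.0 and 506.2 CPM and its post-molt bodies 143.2, 81.9, 159.6 and 114.0 CPM, with no overlap. The log2 fold change of head over body was 2.24 ± 0.22 after the molt (edgeR adjusted p = 1.6e-05) and 2.22 ± 0.14 over the mean of stages (edgeR adjusted p = 1.6e-07). Cfor_11586 followed at 2.11 ± 0.26 after the molt (edgeR adjusted p = 8.1e-05), from 88.7 to 166.7 CPM in heads and 18.2 to 52.0 CPM in bodies, and Cfor_12319 at 1.97 ± 0.17 over the mean of stages (edgeR adjusted p = 2.3e-06).

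Cfor_12716 was the gene most shifted to the body. Post-molt heads held 6.79, 3.83, 7.48 and 8.25 CPM and post-molt bodies 212.0, 60.3, 265.6 and 318.1 CPM, a head over body difference on the log2 scale of -4.72 ± 0.64 (edgeR adjusted p = 0.00016). Its peak in the head thus stood at a few CPM while that in the body reached 318.1 CPM. Cfor_08803 held 74.4, 242.0, 142.7 and 160.6 CPM in post-molt heads and 154.0, 680.8, 501.8 and 560.8 CPM in post-molt bodies, a difference on the log2 scale of -1.40 ± 0.20 (edgeR adjusted p = 0.00026). Over the mean of stages this gene gave -2.86 ± 0.17 (edgeR adjusted p = 1.2e-07), and its body was above its head in every cross after the molt. Counts of Cfor_12716 were not whole in 23 of 24 profiles and those of Cfor_08803 were whole in all.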

How the data were processed

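Per the labels' protocols, RNA was taken with Trizol and silica columns and sequenced from mRNA libraries. Bowtie2, RSEM and DESeq2 are named in the submitters' processing notes; the sources used here do not give versions, roles, genome build or annotation. The authors' deposited values are expected counts per gene (estimated counts, 27.7% of them not whole). NA, in 8.22% of cells, was read as 0. Identical columns of a group were used as 1 profile; 0 columns were without a sample.

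Expected counts were rounded, filtered with filterByExpr, TMM-scaled and run through edgeR 4.0.16 in R 4.3.3 (glmQLFit, robust, and glmQLFTest, Benjamini-Hochberg over all genes tested). The model was cross plus stage over 12 profiles per tissue (12845 genes in the head, 13046 in the body, 6 residual degrees of freedom). Head against body used all 24 profiles (13534 genes, 9 residual degrees of freedom). The SE was taken as the log2 change over the root of the F statistic. Printed CPM use column totals. The tests were checked on simulated counts. DESeq2 1.42.0, RLE scaling, no filter, leaving out genes with NA and leaving out each profile were alternatives.

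The member genes and comparisons were chosen with earlier results of these data known. Named genes are the 2 with the highest post-molt level per tissue, the 2 with the largest smallest-of-4 rise, the 2 on each side of the threshold, the 2 called with the largest change per direction and comparison at a mean log2 CPM of at least 1, and runs of neighbouring IDs (gap of at most 3). The 10 genes high in inter-molt Hybrid G and Cfor_07268 were chosen after their values were seen, as was Cfor_05875 among the 4 genes with the most counts. Intervals and floors cover counting error only.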

Additional observations from a re-analysis of the deposited data

Results flagged for a closer look

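In 9 of 30 groups of 4 crosses, 1 cross lay far from the other 3, and in all 9 it was inter-molt Hybrid G. Chance flags about 1 in 20 independent groups, but these groups are 4 selected genes and a sum that holds them, and the 9 values come from 2 profiles, so the count is no measure of chance. The measure is the gap to the nearest cross divided by the range of the 4. For the summed share of the 95 genes in inter-molt heads it was 0.977. In the head it was 0.962 for BGI_novel_G002829, 0.998 for Cfor_06437, 0.9997 for BGI_novel_G001907 and 0.990 for Cfor_05879. In the body it was 0.965 for BGI_novel_G002829, 0.993 for Cfor_06437, 0.982 for BGI_novel_G001907 and 0.983 for Cfor_05879. Each of these values was high rather than low. The cause was not tested.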

How the results depend on the processing

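No paired analysis was possible because, for a pairing by replicate number, the columns of a group were identical; the blocks were crosses, or cross and stage. With the rule at 3-fold, 40 genes remained of the 95. Under RLE scaling and with no filter, the counts of called genes stayed within 1.5 times of those reported in all 10 comparisons. Between the hybrids DESeq2 called 7 head genes and 2 body genes, where edgeR called 0, and 6 and 15 for hybrids against parental species, where edgeR called 1 and 9. With genes holding NA left out, the hybrids differed from the species for 0 head genes. The cause was not tested. Leaving out each profile in turn gave 46 to 62 calls in the head and 40 to 65 in the body for pre-molt against inter-molt, the 40 without the inter-molt Hybrid F body. For the species it gave 20 to 36 in the head (20 without the inter-molt C. gestroi head, 21 without the pre-molt C. formosanus head) and 15 to 26 in the body (15 without the post-molt C. gestroi body). For the hybrids against the species it gave 0 to 2 in the head and 1 to 10 in the body, between the hybrids 0 in both tissues, and for head against body 23 to 35 after the molt and 51 to 58 over the mean of stages. Leaving a whole cross out of the rule gave between 92 and 121 genes, 92 without Hybrid F and 121 without Hybrid G. Across named genes, 472 alternative values kept their call, 30 lost it and 0 changed sign. With 1 profile per group, the spread within a group could not be measured.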

Other observations

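Of the 95 genes, 15 had another of the set within 3 ID numbers, in 7 runs. ID order is not a stated genome position, and the share of genes in runs depends on how large a set is, so it was not compared. The run of Cfor_05875, Cfor_05878 and Cfor_05879 held 3 of the 6 genes with the most post-molt counts. Between them, Cfor_05877 had post-molt over inter-molt ratios of 4.43 in the head and 1.39 in the body and was outside the set, and Cfor_05876 had geometric mean post-molt levels of 0.0249 CPM in the head and 0 in the body. Beyond the run, Cfor_05881 was lower after the molt than before it, at a ratio of 0.0604 in the head and 0.0393 in the body.

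BGI_novel_G003743 stood beside BGI_novel_G003744, and both had a lower post-molt peak in C. gestroi. Post-molt bodies of BGI_novel_G003743 held 530.2, 111.5, 236.2 and 241.2 CPM in C. formosanus, C. gestroi and the hybrids F and G. Counts of these genes were not whole in 24 and 19 of 24 profiles. In the run of Cfor_03158 and Cfor_03160, the gene between them, Cfor_03159, was under 1 CPM after the molt in both tissues by geometric mean, while Cfor_03160 stood at 615.9 CPM in the head and 692.5 CPM in the body.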
